A study of Mus musculus with 16 samples.

Results

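Transcripts of the matrix metalloproteinases (MMPs), the ADAM and ADAMTS proteases, the ADAMTS-like proteins and their tissue inhibitors (TIMPs) were measured in cultured mouse macrophages. Members were all rows of the count table whose gene symbol was Mmp, Adam, Adamts or Adamtsl with a number (and, for Mmp and Adam, an optional letter), or Timp1 to Timp4. There were 85 of them among 56980 rows: 23 MMP, 34 ADAM, 19 ADAMTS, 5 ADAMTS-like and 4 TIMP genes. The filter on low counts kept 40, and 45 did not pass it.

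The cells were bone-marrow-derived macrophages (BMDMs), grown out of frozen stocks with the growth factor M-CSF. Stocks came from Grn-/- (GrnKO) or Grn+/+ (WT) male mice aged 12 weeks, all C57Bl/6J with the hTfRmu/hu knock-in, which both genotypes carry. Grn encodes progranulin, a secreted and lysosomal protein. By nucleofection of Cas9 ribonucleoproteins, the cells were cut in Mitf, Tfe3 and Tfeb (TKO) or, as controls, in Rosa26, a safe-harbour locus, and RNA was taken 10 days later. The 4 groups were GrnKO TKO, GrnKO Rosa26, WT TKO and WT Rosa26, each with 4 animals by the series design, in 4 batches that held 1 sample of each group. Editing acted on whole cultures, so a TKO sample is a pool of cells and not a clone, and the share of cells edited is not given in the sources used here.

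MMPs are zinc proteases that are made as inactive precursors and cut collagens, elastin, proteoglycans and other proteases outside the cell. ADAMs are mostly membrane-bound and release the outer parts of surface proteins such as TNF and its receptors, while ADAMTS proteases are secreted and cut versican, aggrecan, procollagens or fibrillin-associated proteins. TIMPs bind the active sites of these enzymes, and macrophages are a known source of MMP9, MMP12 and ADAM8 in inflamed tissue. Mitf, Tfe3 and Tfeb encode related transcription factors, the MiT/TFE family, that switch on genes of lysosomes and autophagy.

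Levels are given in CPM, the tags of a gene scaled to library size, where tags come from transcript 3′ ends whatever the transcript's length, and changes as log2 fold change ± SE from edgeR's quasi-likelihood test with a term for batch. A member was called where the p adjusted over all 15385 genes tested was under 0.05. Summed counts per library lay between 18387499 and 28511718 in GrnKO TKO, 28431505 and 32969401 in GrnKO Rosa26, 16246549 and 21463565 in WT TKO, and 7069445 and 22469333 in WT Rosa26. Grn averaged 48.4 and 48.6 CPM in GrnKO TKO and GrnKO Rosa26, against 3010 and 3244 CPM in WT TKO and WT Rosa26. Mitf averaged 171, 144, 160 and 190 CPM, Tfe3 166, 236, 170 and 319 CPM, and Tfeb 59.1, 69.8, 70.7 and 80.7 CPM in GrnKO TKO, GrnKO Rosa26, WT TKO and WT Rosa26, but 3′ tags of a cut gene do not check the edit. The 9 macrophage markers were found in every library, with a mean summed level of 7752, 6389, 9767 and 9094 CPM in the same order of groups. Lymphocyte markers summed to under 1 CPM on average in each group. The labels give male mice, but summed Y-linked transcripts were over 5 CPM in 6 libraries (51.6 to 211 CPM), namely both WT libraries of batches 2 and 3 and both GrnKO libraries of batch 4. In the other 10 libraries they lay between 0.607 and 3.24 CPM, with Xist at 169 to 269 CPM, and the 2 WT libraries of batch 2 held both. Since each library is a bulk sample, fewer cells of a type and less RNA per cell cannot be told apart.

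Loss of Grn in Rosa26 cells went with 13 called members of the 40 tested. Adamts1, Timp2 and Adam19 rose in GrnKO Rosa26 cells relative to WT Rosa26 cells, and 10 members fell, among them the sheddases Adam8, Adam9 and Adam17 and the gelatinase Mmp9. The share called, 32.5%, stands beside 44.6% of all genes tested in that comparison (23.1% higher and 21.5% lower). The median log2 fold change of the 40 members was -0.246, against 0.00442 over all genes tested. With limma on the authors' CPM the split over all genes was 4779 higher and 2498 lower, against 3548 and 3310 here. That of the members was 6 and 7, and the median log2 fold change of all genes was 0.107.

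Editing of Mitf, Tfe3 and Tfeb in GrnKO cells went with 11 called members, 7 higher and 4 lower, a share of 27.5% beside 32.6% of all genes tested (14.8% higher and 17.8% lower). Mmp14, Mmp11, Mmp2, Mmp10, Mmp13, Adam9 and Adam8 rose, and Adamts1, Timp2, Mmp12 and Mmp27 fell. The median over the members was 0.118, and over all genes tested -0.00485. With limma the split over all genes was 1697 higher and 3203 lower, against 2271 and 2740 here, and that of the members 5 and 5. In WT cells the same edit gave 1 called member, Mmp14, which rose, or 2.5% of those tested, beside 3.35% of all genes tested (2.18% higher). There the median over the members was 0.0528, and over all genes tested -0.0112. The GrnKO Rosa26 libraries are shared by the first 2 of these comparisons, so a gene high or low in those libraries moves in both with opposite signs.

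With the factors edited in both genotypes, 5 members were called between GrnKO TKO and WT TKO cells (2 higher and 3 lower; 12.5%), beside 4.99% of all genes tested (2.53% higher and 2.45% lower), with medians of -0.0495 over the members and 0.00481 over all genes. Between GrnKO TKO and WT Rosa26 cells 6 were called (5 higher and 1 lower; 15%), beside 12.7% (6.43% higher and 6.25% lower), with medians of -0.0129 and -0.00515. The editing effect differed between the genotypes (interaction) for 4 members, Adamts1, Adam8, Adam19 and Mmp19, or 10% of those tested, beside 13.4% of all genes. The difference, GrnKO minus WT, was positive for 1 (beside 5.8%) and negative for 3 (beside 7.63%). In all, 21 of the 40 members were called in 1 or more of the 6 comparisons, and 19 in none. The matching share of all genes was not computed. Loss of Grn in Rosa26 cells alone gave calls for 44.6% of all genes tested, so the count shows nothing particular to the members.

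**Figure D1:**
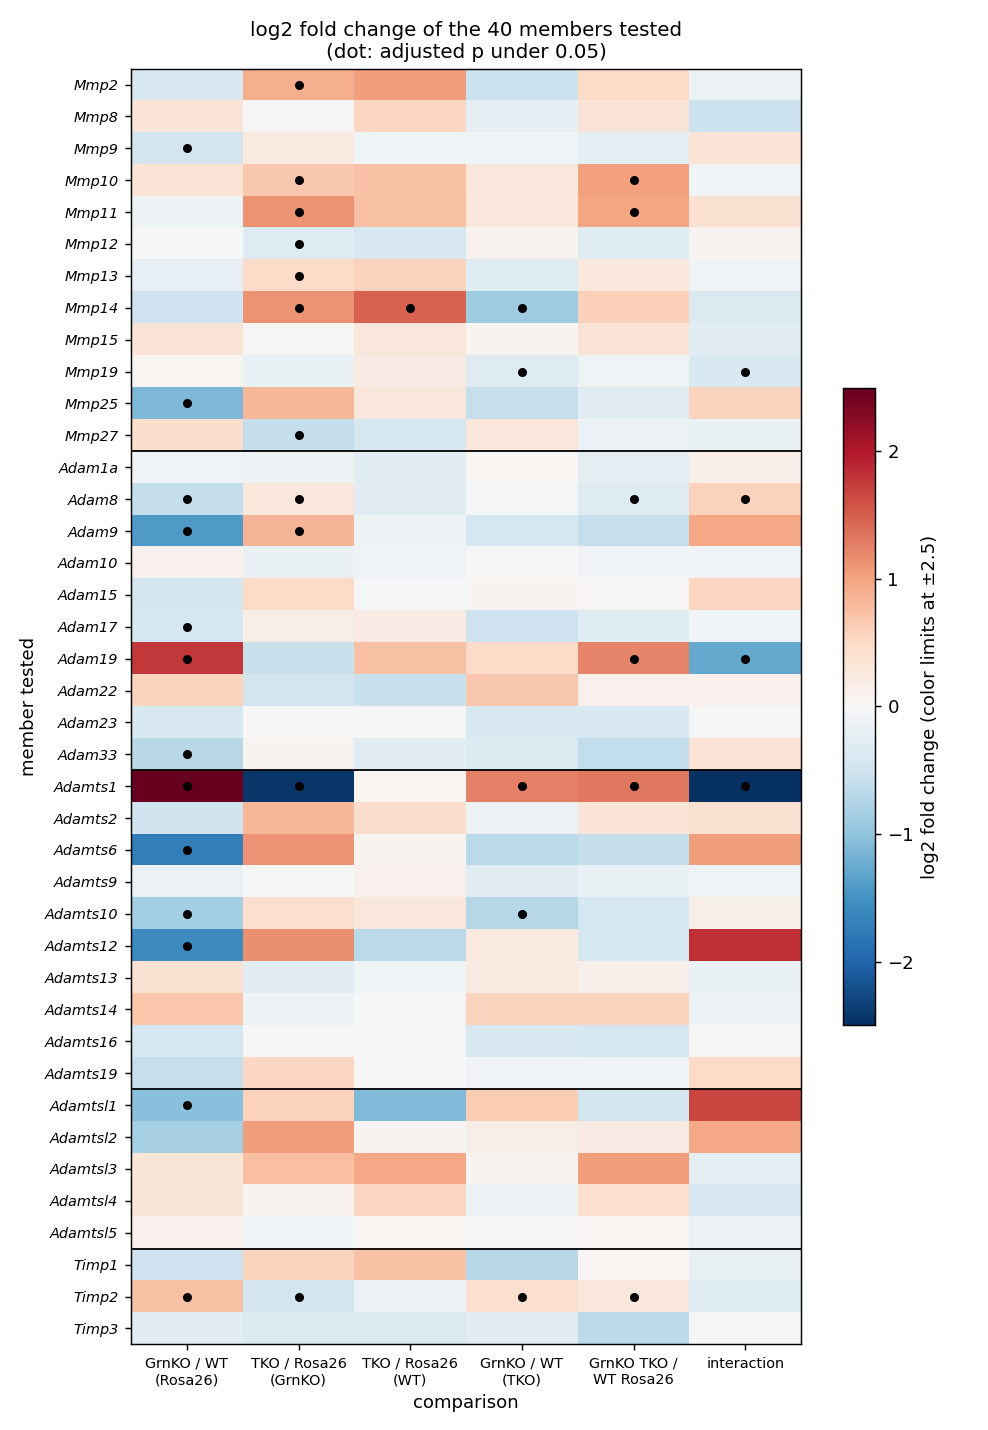
Heatmap of log2 fold changes for the 40 members tested, in rows by family, and 6 comparisons, in columns; red is higher and blue lower in the group named first, the last column is the editing effect in GrnKO minus that in WT, and a dot marks an adjusted p under 0.05. Color limits are at ±2.5, which Adamts1 passes at 3.74 in the first column.

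Adamts1, a secreted protease that cuts versican and aggrecan, had the largest log2 change of the 40 members tested. The single RefSeq start of Adamts1 is at GRCm38.p6 chr16:85803064-85803363 on the minus strand, a window of 250 bases before to 50 after the start. It is printed because the gene moved with both the genotype and the edit, and no letters are in capitals since none of the 4 motifs searched was found in it:
Adamts1: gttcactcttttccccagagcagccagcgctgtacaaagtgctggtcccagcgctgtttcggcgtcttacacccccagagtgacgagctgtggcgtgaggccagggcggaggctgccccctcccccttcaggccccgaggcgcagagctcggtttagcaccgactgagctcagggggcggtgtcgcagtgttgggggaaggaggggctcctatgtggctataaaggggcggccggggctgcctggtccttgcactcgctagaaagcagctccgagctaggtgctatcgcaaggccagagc

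Adamts1 stood at 1.66, 2.64, 3.26 and 1.55 CPM in GrnKO TKO and at 10.4, 16.4, 16.1 and 6.78 CPM in GrnKO Rosa26 libraries, replicates 1 to 4. In WT cells it stood at 0.877, 1.37, 0.943 and 0.590 CPM in TKO and at 0.462, 1.37, 1.17 and 0.549 CPM in Rosa26 libraries, where the lowest value rests on 3 counts. All 4 GrnKO Rosa26 libraries lay above every other library, and all 4 GrnKO TKO libraries lay above all 8 WT libraries. Loss of Grn raised Adamts1 13.4-fold in Rosa26 cells (log2 3.74 ± 0.19, adjusted p = 1.07e-10, higher in 4 of 4 batches). Editing in GrnKO cells lowered it (log2 -2.43 ± 0.16, adjusted p = 4.75e-09, lower in 4 of 4 batches). In WT cells the edit gave 0.06 ± 0.24 (adjusted p = 0.969), with overlapping groups, and the interaction was -2.49 ± 0.29 (adjusted p = 4.39e-05).

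The rise was smaller but called in edited cells: GrnKO TKO exceeded WT TKO by a log2 fold change of 1.25 ± 0.20 (adjusted p = 0.00117) and WT Rosa26 by 1.31 ± 0.21 (adjusted p = 0.000617). Without the replicate block these 2 calls had adjusted p of 0.0829 and 0.0641. On the 10 libraries without Y-linked signal their adjusted p were 0.25 and 0.0618, while the calls for Adamts1 on Grn loss in Rosa26 cells, on editing in GrnKO cells and on the interaction held under every alternative run.

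Versican (Vcan), a substrate of Adamts1, averaged 35.1 ± 5.50 CPM in GrnKO TKO and 10.1 ± 2.36 CPM in GrnKO Rosa26 cells (SD, n = 4). In WT cells it averaged 53.4 ± 11.1 CPM with TKO and 34.4 ± 11.3 CPM with Rosa26. Vcan fell with loss of Grn in Rosa26 cells (log2 -1.75 ± 0.21, adjusted p = 2.45e-05) and rose with editing in GrnKO cells (1.81 ± 0.21, adjusted p = 4.3e-05). Among markers of other cell types, the summed level of 10 osteoclast markers ranged over 89.6 to 127 CPM in GrnKO TKO, 177 to 201 CPM in GrnKO Rosa26, 63.9 to 95.2 CPM in WT TKO and 67.8 to 129 CPM in WT Rosa26. Of 8 osteoclast markers tested, 4 rose and 2 fell with loss of Grn in Rosa26 cells, and Atp6v0d2 and Itgb3 carried the high sum in GrnKO Rosa26. Atp6v0d2 averaged 56.7, 124, 26.7 and 40.6 CPM in GrnKO TKO, GrnKO Rosa26, WT TKO and WT Rosa26, while Dcstamp was lowest in GrnKO Rosa26 (7.55, 5.1, 8.24 and 15.4 CPM in the same order) and Calcr was at 0 in all 4 of those libraries. The 4 endothelial markers summed to 24.0 to 30.3 CPM in GrnKO TKO, 33.4 to 41.4 CPM in GrnKO Rosa26, 14.2 to 19.4 CPM in WT TKO and 12.8 to 15.7 CPM in WT Rosa26, most of it Kdr, while Tek was at 0 in 3 libraries. Of the 3 endothelial markers tested, 1 was called in the direction of Adamts1 in each of the 5 comparisons where Adamts1 was called, and 1 fell with loss of Grn in Rosa26 cells. The part of these markers in the result was not tested.

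**Figure D2:**
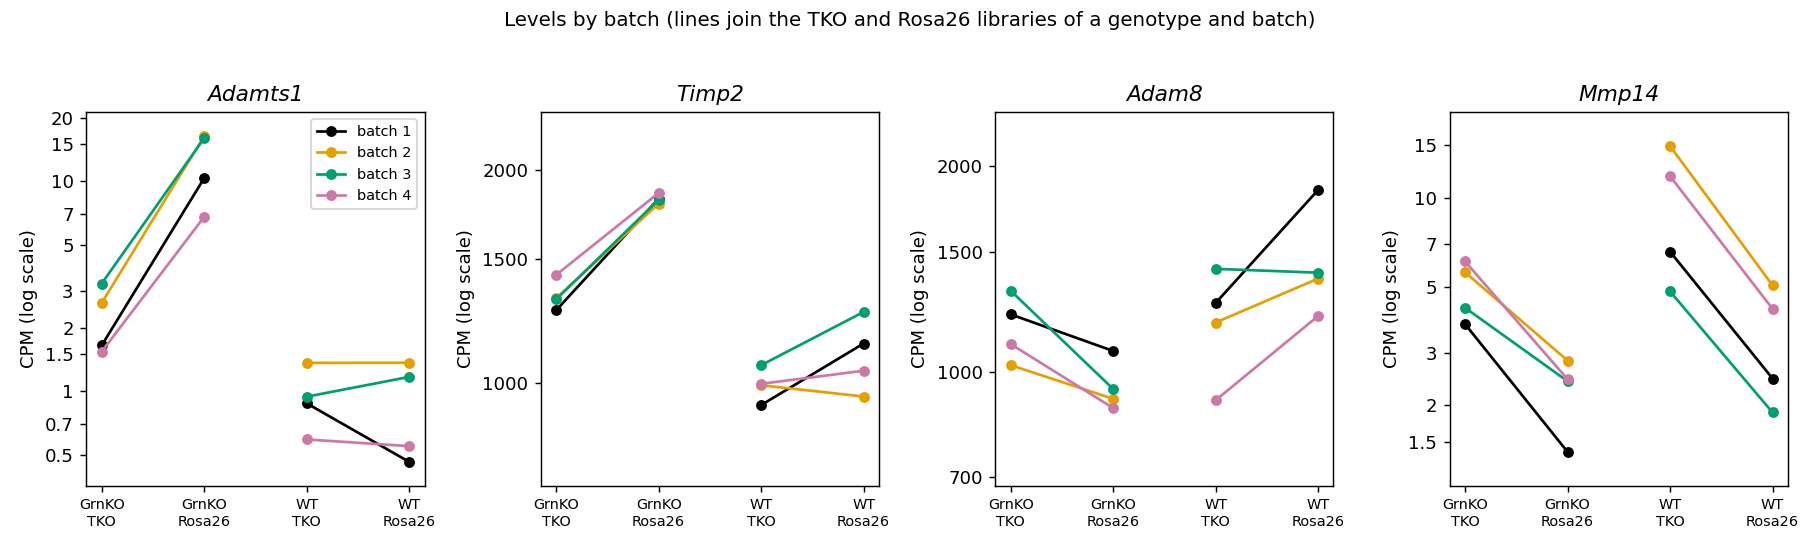
CPM of Adamts1, Timp2, Adam8 and Mmp14 on log axes, by group from GrnKO TKO to WT Rosa26; each color is a batch, and lines join the TKO and Rosa26 libraries of 1 genotype and batch. Adamts1 is at 6.78 to 16.4 CPM in the 4 GrnKO Rosa26 libraries and at most 3.26 CPM in the other 12, and the Mmp14 lines of both genotypes have their higher end at TKO in each batch.

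Among the other ADAMTS genes, Adamts10, which binds fibrillin, stood at 7.72, 8.58, 12.6 and 10.6 CPM in GrnKO TKO and at 7.51, 7.30, 7.34 and 7.37 CPM in GrnKO Rosa26 libraries. In WT TKO libraries it stood at 12.1, 21.7, 13.6 and 17.7 CPM, and in WT Rosa26 at 14.6, 15.1, 9.01 and 15.9 CPM. The GrnKO Rosa26 libraries were nearly level and lay below every WT library. Adamts10 fell with loss of Grn in Rosa26 cells (log2 -0.85 ± 0.19, adjusted p = 0.0016) and in TKO cells (-0.70 ± 0.19, adjusted p = 0.0364). The TKO call was not kept without the replicate block (adjusted p = 0.0503), nor when replicate 1, 2 or 4 of GrnKO TKO, replicate 2, 3 or 4 of WT TKO or replicate 2 of GrnKO Rosa26 was left out (0.0541 to 0.173). Nor was it kept on the 10 libraries without Y-linked signal, with or without the block (adjusted p up to 0.357). Adamts6, the closest relative of Adamts10, averaged 1.24 ± 0.44 CPM in GrnKO TKO, 0.548 ± 0.079 CPM in GrnKO Rosa26, 1.95 ± 1.0 CPM in WT TKO and 2.04 ± 1.2 CPM in WT Rosa26. It fell by 1.73 ± 0.44 on the log2 scale with loss of Grn in Rosa26 cells (adjusted p = 0.0044), and that call held under every alternative that gave it a value.

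Adamts12 fell in the same comparison (log2 -1.59 ± 0.49, adjusted p = 0.0127), with means of 0.254 CPM in GrnKO Rosa26 and 0.863 CPM in WT Rosa26. The call was not kept without WT Rosa26 replicate 4 (adjusted p = 0.0682). Adamtsl1, an ADAMTS-like protein with no protease domain, was called lower (-1.04 ± 0.41, adjusted p = 0.0479). That call was lost when any of 12 libraries was left out (adjusted p 0.0504 to 0.249), that is, any but WT Rosa26 replicate 1, WT TKO replicates 3 and 4 and GrnKO Rosa26 replicate 4. It was also lost with DESeq2 (0.0829), limma (0.153), no filter (0.173) and the Y-linked covariate (0.1). On the libraries without Y-linked signal the adjusted p was 0.776, or 0.413 with no block. Adamts2 and Adamts14, which trim procollagens, the von Willebrand factor protease Adamts13, and Adamts9, Adamts16 and Adamts19 were called in no comparison, with group means between 0.289 and 1.61 CPM. Adamtsl2, Adamtsl3 and Adamtsl4 (0.178 to 0.645 CPM) and Adamtsl5 (12.3 to 13.0 CPM) were not called either.

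Timp2, an inhibitor of MMPs that also helps MMP14 to activate MMP2, was the TIMP with the changes. One start of the gene is listed, at GRCm38.p6 chr11:118355362-118355661 on the minus strand, printed for the same reason as that of Adamts1 and again with none of the motifs:
Timp2: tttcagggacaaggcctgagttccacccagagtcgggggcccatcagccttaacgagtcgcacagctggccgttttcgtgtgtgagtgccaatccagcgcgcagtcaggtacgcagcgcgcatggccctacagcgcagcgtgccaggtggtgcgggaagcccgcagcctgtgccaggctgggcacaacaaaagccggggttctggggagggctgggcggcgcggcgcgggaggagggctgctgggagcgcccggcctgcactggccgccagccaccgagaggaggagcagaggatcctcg

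Timp2 stood at 1269, 1319, 1314 and 1423 CPM in GrnKO TKO and at 1823, 1795, 1817 and 1858 CPM in GrnKO Rosa26 libraries. In WT TKO it stood at 932, 994, 1061 and 999 CPM, and in WT Rosa26 at 1139, 958, 1262 and 1042 CPM. The 2 GrnKO groups overlapped neither each other nor a WT group, while the WT groups overlapped. Loss of Grn raised Timp2 1.66-fold in Rosa26 cells (log2 0.73 ± 0.07, adjusted p = 3.83e-07), and editing in GrnKO cells lowered it (-0.45 ± 0.07, adjusted p = 0.00016). Both calls held under every alternative run.

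In WT cells the edit gave -0.14 ± 0.07 for Timp2 (adjusted p = 0.347), and the interaction, -0.31 ± 0.10, was not called (adjusted p = 0.0508). The interaction was called with no filter (0.00348), DESeq2 (0.0388), limma (0.0278) and the Y-linked covariate (0.0446). With RLE scaling, at 5 CPM or more, without the block and on the libraries without Y-linked signal it was not called. Timp2 also stayed above WT in edited cells, by 0.42 ± 0.07 against WT TKO (adjusted p = 0.00244) and by 0.28 ± 0.07 against WT Rosa26 (adjusted p = 0.018). The first was not kept on the 10 libraries without Y-linked signal (adjusted p = 0.0883). The second was not kept there (0.165), without the replicate block (0.0641), or without replicate 2 or 4 of GrnKO TKO or of WT Rosa26 (0.0616 to 0.0945). Timp1, an inhibitor induced in many inflamed tissues, averaged 2.15 ± 0.36 CPM in GrnKO TKO, 1.51 ± 0.59 CPM in GrnKO Rosa26, 3.52 ± 1.0 CPM in WT TKO and 2.16 ± 0.78 CPM in WT Rosa26. It was called in no comparison, with adjusted p of 0.0794 for loss of Grn and 0.061 for editing in GrnKO cells. Timp3, which binds to the matrix, averaged 0.309 to 0.487 CPM and was not called.

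Of 7 catalytic ADAM sheddases tested, 4 fell and 1, Adam19, rose with loss of Grn in Rosa26 cells, or 71.4% beside 44.6% of all genes tested. Among the 9 macrophage markers 4 fell and 2 rose in the same comparison, with Itgam at 522, 213, 812 and 598 CPM on average in GrnKO TKO, GrnKO Rosa26, WT TKO and WT Rosa26. The part of these markers in the ADAM results was not tested. Adam8, a protease of myeloid cells, stood at 1214, 1022, 1314 and 1098 CPM in GrnKO TKO and at 1073, 913, 944 and 885 CPM in GrnKO Rosa26 libraries. WT TKO libraries had 1261, 1181, 1415 and 908 CPM, and WT Rosa26 libraries had 1847, 1369, 1397 and 1207 CPM. The GrnKO Rosa26 libraries all lay below the WT Rosa26 libraries, and the 2 TKO groups overlapped. Adam8 fell with loss of Grn in Rosa26 cells (log2 -0.60 ± 0.09, adjusted p = 3.46e-05), a call kept under every alternative run.

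The effect of editing on Adam8 differed between the genotypes. Adam8 rose with editing in GrnKO cells (0.28 ± 0.09, adjusted p = 0.0215, higher in 4 of 4 batches), and in WT cells, where the groups overlapped, the difference was -0.29 ± 0.09 and not called (adjusted p = 0.0947, lower in 3 of 4 batches). The interaction was 0.57 ± 0.13 (adjusted p = 0.00762). Without the replicate block the interaction had an adjusted p of 0.0695 and the change in GrnKO cells one of 0.118. The change in GrnKO cells was also not kept without GrnKO Rosa26 replicate 1 or 3 or GrnKO TKO replicate 3 or 4 (0.0597 to 0.0844). GrnKO TKO cells had less Adam8 than WT Rosa26 cells (-0.31 ± 0.09, adjusted p = 0.029), which was not kept without the replicate block (0.16) or without replicate 1 or 2 of either group (0.081 to 0.125).

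Adam9, another membrane-bound sheddase, stood at 182, 42.9, 131 and 138 CPM in GrnKO TKO and at 60.8, 33.5, 83.9 and 76.7 CPM in GrnKO Rosa26 libraries. In WT TKO it stood at 214, 68.4, 200.5 and 173 CPM, and in WT Rosa26 at 308, 110, 131 and 143 CPM. Replicate 2 was the lowest of its group in all 4 groups, and all GrnKO Rosa26 libraries lay below all WT Rosa26 libraries. Adam9 fell with loss of Grn in Rosa26 cells (log2 -1.42 ± 0.27, adjusted p = 0.00153, lower in 4 of 4 batches), with an adjusted p of 0.0688 on the 10 libraries without Y-linked signal. With editing in GrnKO cells it rose (0.85 ± 0.26, adjusted p = 0.0303), but not without the replicate block (0.17), nor without replicate 1 or 4 of either GrnKO group, GrnKO Rosa26 replicate 2 or GrnKO TKO replicate 3 (0.0564 to 0.0887).

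Adam17, the main sheddase of TNF, stood at 662, 396, 631 and 447 CPM in GrnKO TKO and at 500.5, 426, 559 and 442 CPM in GrnKO Rosa26 libraries. WT TKO libraries had 713, 808, 707 and 772 CPM, and WT Rosa26 libraries had 616, 685, 586 and 713 CPM. Each GrnKO group lay below the WT group with the same edit, without overlap. The fall was called in Rosa26 cells (log2 -0.44 ± 0.14, adjusted p = 0.0184), and in TKO cells it was -0.51 ± 0.14 with an adjusted p of 0.0513. The TKO difference was called with RLE scaling (0.05 after rounding), with no filter (4.91e-07), at 5 CPM or more (0.0456), with DESeq2 (0.00538) and with the Y-linked covariate (0.0389). It was also called without replicate 1 or 3 of GrnKO TKO, replicate 1 of WT TKO or replicate 3 or 4 of WT Rosa26 (0.0145 to 0.0495). Without the replicate block, with limma and on the libraries without Y-linked signal, with or without the block, it was not called. The call in Rosa26 cells was not kept without replicate 2 or 4 of either Rosa26 group (0.0563 to 0.08) or with limma (0.0597). Nor was it kept on the 10 libraries without Y-linked signal (-0.19, adjusted p = 0.254), where it was -0.43 with no block (adjusted p = 0.098).

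Adam33, a gene linked to asthma in humans, stood at 2.76, 3.96, 3.89 and 2.93 CPM in GrnKO TKO and at 3.57, 3.01, 3.35 and 2.95 CPM in GrnKO Rosa26 libraries. In WT TKO it stood at 3.02, 4.85, 5.60 and 3.86 CPM, and in WT Rosa26 at 6.00, 4.72, 2.84 and 7.68 CPM. WT Rosa26 replicate 3 lay below all GrnKO Rosa26 libraries, so the groups overlapped. Its fall with loss of Grn in Rosa26 cells (log2 -0.69 ± 0.26, adjusted p = 0.04) was not kept without WT Rosa26 replicate 1, 2 or 4, GrnKO Rosa26 replicate 2, 3 or 4 or WT TKO replicate 4 (0.0507 to 0.287).

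Adam19, also called meltrin beta, was the sheddase that rose. It averaged 2.45 ± 0.54 CPM in GrnKO TKO, 3.64 ± 0.91 CPM in GrnKO Rosa26, 1.80 ± 0.59 CPM in WT TKO and 1.11 ± 0.23 CPM in WT Rosa26. The rise with loss of Grn was 1.77 ± 0.25 in Rosa26 cells (adjusted p = 1.68e-05), and in TKO cells, where the groups overlapped, the difference was 0.48 ± 0.23 (adjusted p = 0.268, higher in 3 of 4 batches). GrnKO TKO cells, which differ from WT Rosa26 cells in both genotype and edit, exceeded them by 1.22 ± 0.26 (adjusted p = 0.00491). On the 10 libraries without Y-linked signal the called differences had adjusted p of 0.0692 and 0.519. The interaction was -1.29 ± 0.34 (adjusted p = 0.0191), with -0.55 ± 0.21 for the edit in GrnKO cells (adjusted p = 0.0533) and 0.74 ± 0.27 in WT cells (adjusted p = 0.163). The interaction was not kept without the replicate block (0.0579), nor without WT TKO replicate 3, WT Rosa26 replicate 4 or GrnKO Rosa26 replicate 4 (0.0509 to 0.0572). It was also lost when any of the 4 batches was left out (adjusted p up to 0.0885). On the libraries without Y-linked signal, with and without the block, it was lost as well (up to 0.292).

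Adam10, which starts the cleavage of Notch receptors, averaged 125 ± 14.6 CPM in GrnKO TKO, 140 ± 15.4 CPM in GrnKO Rosa26, 123 ± 7.43 CPM in WT TKO and 131 ± 21.3 CPM in WT Rosa26. It was called in no comparison, with log2 differences between -0.17 and 0.10. Adam15 averaged 1227 ± 273 CPM in GrnKO TKO, 870 ± 123 CPM in GrnKO Rosa26, 1183 ± 306 CPM in WT TKO and 1218 ± 383 CPM in WT Rosa26. Its difference with loss of Grn, -0.46 ± 0.28, was not called (adjusted p = 0.214). It was called without WT Rosa26 replicate 3, the lowest WT library for this gene at 676 CPM (-0.71, adjusted p = 0.0296). Leaving out batch 3 also gave a call (0.000121), as did the libraries without Y-linked signal (0.00825, or 0.0132 with no block). With the block those libraries also gave calls for editing in GrnKO cells (0.50, adjusted p = 0.00816) and the interaction (0.74, adjusted p = 0.019). Without batch 3 these 2 were called too (0.0131 and 0.0419). Adam22 (2.24 to 4.84 CPM) and Adam23 (0.956 to 1.35 CPM), which lack protease activity and bind LGI1 at synapses, were not called (for Adam22 with loss of Grn in Rosa26 cells, 0.56 ± 0.23, adjusted p = 0.0591), nor was Adam1a (0.745 to 0.901 CPM), a gene of sperm function.

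**Figure D3:**
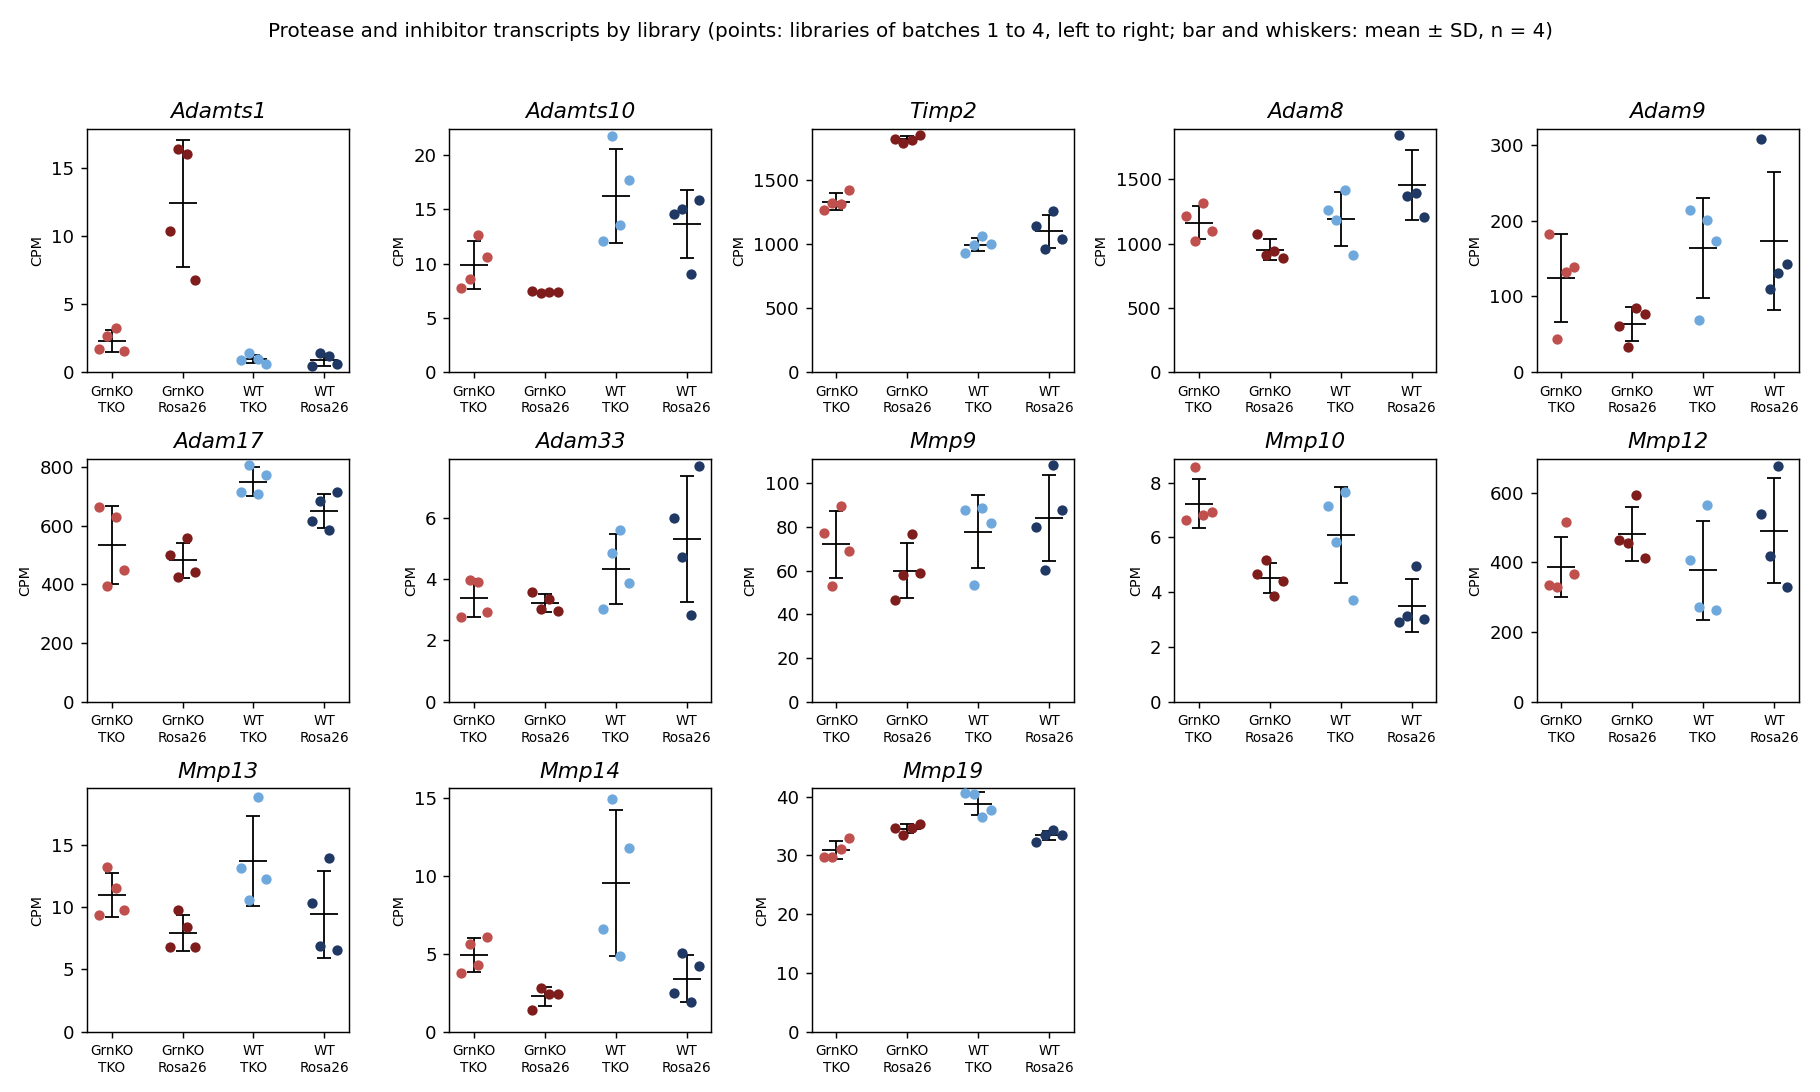
CPM of the 13 members described by library, on linear axes from 0; each point is a library (batches 1 to 4 from left to right within a group), and the bar and whiskers are the mean ± SD of 4. Groups run from GrnKO TKO to WT Rosa26, and the GrnKO Rosa26 points of Adamts1 and Timp2 lie above all others, while those of Adam8 and Adam9 lie below all WT Rosa26 points.

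Mmp14 was the member that rose with editing in both genotypes. It encodes the membrane-type protease MT1-MMP, which cuts collagen at the cell surface and activates MMP2. Its start, at GRCm38.p6 chr14:54431348-54431647 on the plus strand, is printed since it answered to the edit in both genotypes, and it held none of the motifs:
Mmp14: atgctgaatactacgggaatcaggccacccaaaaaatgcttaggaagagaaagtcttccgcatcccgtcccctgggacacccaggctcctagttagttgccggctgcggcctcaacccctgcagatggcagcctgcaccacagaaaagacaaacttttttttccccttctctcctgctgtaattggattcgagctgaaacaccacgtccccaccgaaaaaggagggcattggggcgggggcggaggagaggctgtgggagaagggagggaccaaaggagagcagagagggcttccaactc

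Mmp14 stood at 3.75, 5.61, 4.26 and 6.10 CPM in GrnKO TKO and at 1.39, 2.83, 2.41 and 2.45 CPM in GrnKO Rosa26 libraries. WT TKO libraries had 6.58, 14.9, 4.83 and 11.8 CPM, and WT Rosa26 libraries had 2.46, 5.07, 1.89 and 4.22 CPM. The GrnKO groups did not overlap; the WT groups did, with replicates 2 and 4 the higher in both, and within each batch the TKO library was the higher. The rise was 2.17-fold in GrnKO cells (log2 1.12 ± 0.21, adjusted p = 0.000513) and 2.79-fold in WT cells (1.48 ± 0.21, adjusted p = 0.000353), and the interaction was -0.36 ± 0.29 (adjusted p = 0.436). The GrnKO call held under every alternative run, and the WT call under all but the 10 libraries without Y-linked signal with no replicate block (adjusted p = 0.312).

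Between genotypes Mmp14 was lower in GrnKO TKO than in WT TKO cells (-0.88 ± 0.19, adjusted p = 0.0128), which was not kept without the replicate block (0.179) or without replicate 2 of GrnKO TKO or WT TKO (0.0843 to 0.0853). That call was also lost on the 10 libraries without Y-linked signal, with and without the block (adjusted p up to 0.307). In Rosa26 cells the difference was -0.52 ± 0.22 (adjusted p = 0.0636), or -0.66 without WT Rosa26 replicate 3, where it was called (adjusted p = 0.0254). Mmp14 in GrnKO TKO against WT Rosa26 cells gave 0.60 ± 0.21 (adjusted p = 0.0726).

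Both gelatinases passed the filter. Mmp2, gelatinase A, averaged 1.21 ± 0.53 CPM in GrnKO TKO, 0.624 ± 0.17 CPM in GrnKO Rosa26, 1.74 ± 0.48 CPM in WT TKO and 0.798 ± 0.39 CPM in WT Rosa26. It rose with editing in GrnKO cells (0.91 ± 0.34, adjusted p = 0.0442), and in WT cells the difference was 1.04 ± 0.35 (adjusted p = 0.121), with every WT TKO library above every WT Rosa26 library. With limma the WT difference was called (0.84, adjusted p = 0.0456). With loss of Grn in Rosa26 cells Mmp2 gave -0.41 ± 0.37 (adjusted p = 0.391). The call for editing in GrnKO cells was lost with no filter, limma and both fits without Y-linked libraries (adjusted p up to 0.269). The GrnKO call was not kept without the replicate block (0.0541) or when replicate 1 or 4 of either GrnKO group, GrnKO TKO replicate 2 or WT TKO replicate 1, 2 or 4 was left out (0.0501 to 0.234).

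Mmp9, gelatinase B, stood at 77.2, 52.8, 89.4 and 69.1 CPM in GrnKO TKO and at 46.5, 57.8, 76.9 and 59.0 CPM in GrnKO Rosa26 libraries. In WT TKO it stood at 87.7, 53.4, 88.4 and 81.7 CPM, and in WT Rosa26 at 80.0, 60.2, 108 and 87.8 CPM. The groups overlapped, but in each of the 4 batches the GrnKO Rosa26 library was below the WT Rosa26 library. Mmp9 fell with loss of Grn in Rosa26 cells (log2 -0.46 ± 0.12, adjusted p = 0.00373), with an adjusted p of 0.067 without the replicate block and 0.0543 on the 10 libraries without Y-linked signal. Neither the edit in GrnKO cells (0.25 ± 0.12, adjusted p = 0.115) nor that in WT cells (-0.10 ± 0.12, adjusted p = 0.717) was called.

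Mmp11, stromelysin-3, which furin activates inside the cell, averaged 1.48 ± 0.31 CPM in GrnKO TKO, 0.669 ± 0.11 CPM in GrnKO Rosa26, 1.22 ± 0.41 CPM in WT TKO and 0.717 ± 0.27 CPM in WT Rosa26. It rose with editing in GrnKO cells (1.11 ± 0.28, adjusted p = 0.00507), a call kept under every alternative run that tested it. In WT cells the difference was 0.72 ± 0.32 (adjusted p = 0.245). GrnKO TKO exceeded WT Rosa26 cells by 0.99 ± 0.31 (adjusted p = 0.0392), but not without the replicate block (0.0785), with Y-linked signal as a covariate (0.0575), or without replicate 1, 2 or 3 of either group or GrnKO TKO replicate 4 (0.0534 to 0.121). Mmp25, a membrane-anchored MMP, was called lower with loss of Grn in Rosa26 cells (-1.12 ± 0.38, adjusted p = 0.0209), with means of 0.423 CPM in GrnKO Rosa26 and 0.986 CPM in WT Rosa26. That call was not kept without WT Rosa26 replicate 1, 2 or 4 or GrnKO Rosa26 replicate 2 (0.0506 to 0.118). Mmp15 (0.596 to 0.731 CPM) was not called.

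Stromal cells are a known source of Mmp2, Mmp11 and Mmp14. Of 9 stromal markers, Lum was at 0 in 5 libraries and the highest value of any was 1.86 CPM, for Dcn. Their sum ranged over 2.16 to 3.42 CPM in GrnKO TKO, 1.12 to 1.95 CPM in GrnKO Rosa26, 1.89 to 6.52 CPM in WT TKO and 2.16 to 3.35 CPM in WT Rosa26. Of the 2 that passed the filter, 1 rose with editing in GrnKO cells and 1 fell with loss of Grn in Rosa26 cells. Of 6 erythroid and megakaryocyte markers, 3 were tested, and 2 rose with editing in GrnKO cells and 1 in WT cells. Their sum ranged over 527 to 694 CPM in GrnKO TKO, 211 to 269 CPM in GrnKO Rosa26, 819 to 945 CPM in WT TKO and 384 to 524 CPM in WT Rosa26, nearly all of it Pf4, while Hba-a1 was at 0 in all 16 libraries and Gata1 in 8. The part of these markers in the MMP results was not tested.

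Mmp19, an MMP that cuts basement membrane proteins, varied little within groups. It stood at 29.8, 29.7, 31.0 and 32.9 CPM in GrnKO TKO and at 34.7, 33.5, 34.6 and 35.4 CPM in GrnKO Rosa26 libraries. WT TKO libraries had 40.6, 40.4, 36.6 and 37.7 CPM, and WT Rosa26 libraries had 32.3, 33.5, 34.2 and 33.5 CPM. The GrnKO TKO libraries were below all GrnKO Rosa26 libraries, and the WT TKO libraries above all WT Rosa26 libraries. The interaction was called (log2 -0.38 ± 0.11, adjusted p = 0.0305), as was GrnKO TKO against WT TKO (-0.33 ± 0.08, adjusted p = 0.0185). Neither edit effect alone was called, at -0.16 ± 0.08 in GrnKO cells (adjusted p = 0.117) and 0.21 ± 0.08 in WT cells (adjusted p = 0.164).

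These Mmp19 calls were sensitive to single libraries. GrnKO TKO against WT TKO was not kept without replicate 1 or 2 of either group (0.0512 to 0.0943). Nor was it kept with no filter, or on the 10 libraries without Y-linked signal with or without the block (adjusted p up to 0.235). The interaction was not kept without any replicate 1, WT TKO replicate 2, GrnKO Rosa26 replicates 2, 3 or 4 or WT Rosa26 replicate 4 (0.0529 to 0.0731).

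On chromosome 9 a run of 10 MMP genes lies in a row in the RefSeq gene order of GRCm38.p6: Mmp13, Mmp12, Mmp1b, Mmp3, Mmp1a, Mmp10, Mmp8, Mmp27, Mmp20 and Mmp7. Of these, Mmp13, Mmp12, Mmp10, Mmp8 and Mmp27 passed the filter, and they did not change in 1 direction. With editing in GrnKO cells Mmp10 and Mmp13 rose, Mmp12 and Mmp27 fell and Mmp8 was not called. The starts of the 3 that were described by library are printed to set neighbours with opposite changes side by side. They lie on the plus strand at GRCm38.p6 chr9:7272264-7272563 (Mmp13), chr9:7347124-7347423 (the second of 2 starts listed for Mmp12) and chr9:7502092-7502391 (Mmp10). Capitals mark CATGTG (the M-box core, which MiT/TFE factors are known to bind) and TGAGTCA (the AP-1 site), on either strand:
Mmp13: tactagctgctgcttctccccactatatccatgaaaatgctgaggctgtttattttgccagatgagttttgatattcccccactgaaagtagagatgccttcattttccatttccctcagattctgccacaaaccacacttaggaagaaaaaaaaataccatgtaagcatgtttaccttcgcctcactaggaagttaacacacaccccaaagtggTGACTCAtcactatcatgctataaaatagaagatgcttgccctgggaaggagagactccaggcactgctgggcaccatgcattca
Mmp12: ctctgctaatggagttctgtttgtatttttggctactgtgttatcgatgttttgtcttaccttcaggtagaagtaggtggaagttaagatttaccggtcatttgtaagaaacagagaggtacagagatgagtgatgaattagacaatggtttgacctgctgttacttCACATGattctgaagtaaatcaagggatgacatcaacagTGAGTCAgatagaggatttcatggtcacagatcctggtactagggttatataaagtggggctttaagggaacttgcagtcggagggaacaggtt
Mmp10: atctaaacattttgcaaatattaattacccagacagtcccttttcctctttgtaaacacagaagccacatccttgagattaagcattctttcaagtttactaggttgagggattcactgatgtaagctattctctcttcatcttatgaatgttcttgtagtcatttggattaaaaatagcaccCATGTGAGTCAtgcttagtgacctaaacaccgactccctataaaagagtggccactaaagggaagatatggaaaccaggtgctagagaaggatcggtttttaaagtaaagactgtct

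Mmp10, stromelysin-2, stood at 6.62, 8.58, 6.83 and 6.91 CPM in GrnKO TKO and at 4.65, 5.17, 3.84 and 4.42 CPM in GrnKO Rosa26 libraries. In WT TKO it stood at 7.13, 5.84, 7.66 and 3.72 CPM, and in WT Rosa26 at 2.92, 3.15, 4.96 and 3.02 CPM. The GrnKO groups did not overlap, and the WT groups overlapped through TKO replicate 4 and Rosa26 replicate 3. Mmp10 rose with editing in GrnKO cells (log2 0.68 ± 0.19, adjusted p = 0.00916), and in WT cells the difference was 0.74 ± 0.21 (adjusted p = 0.055, higher in 4 of 4 batches). The WT difference was called with no filter (0.00357), at 5 CPM or more (0.0447), with DESeq2 (0.0169), limma (0.0343) and the Y-linked covariate (0.0358). With RLE scaling, without the block and on the libraries without Y-linked signal it was not called. GrnKO TKO cells exceeded WT Rosa26 cells by 1.02 ± 0.20 (adjusted p = 0.00298), with an adjusted p of 0.0934 on the 10 libraries without Y-linked signal.

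Mmp13, collagenase-3, stood at 9.38, 13.2, 11.6 and 9.76 CPM in GrnKO TKO and at 6.79, 9.73, 8.39 and 6.78 CPM in GrnKO Rosa26 libraries. WT TKO libraries had 13.2, 10.6, 18.9 and 12.3 CPM, and WT Rosa26 libraries had 10.3, 6.85, 14.0 and 6.58 CPM. The groups overlapped, and in each batch and genotype the TKO library was the higher. The rise in GrnKO cells (log2 0.48 ± 0.17, adjusted p = 0.0445) was not kept without the replicate block (0.119), nor without GrnKO Rosa26 replicate 1, 3 or 4, GrnKO TKO replicate 1, 2 or 4 or WT TKO replicate 1, 3 or 4 (0.0538 to 0.197). In WT cells the difference was 0.57 ± 0.18 (adjusted p = 0.104). It was called there with no filter (0.00372), DESeq2 (0.0471) and on the libraries without Y-linked signal (0.0396). With RLE scaling, limma, the Y-linked covariate and without the block it was not called.

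Mmp12, macrophage elastase, stood at 337, 330, 515 and 366 CPM in GrnKO TKO and at 465, 456, 594 and 413 CPM in GrnKO Rosa26 libraries. In WT TKO it stood at 406, 273, 566 and 263 CPM, and in WT Rosa26 at 539, 418, 676 and 329 CPM. Replicate 3 was the highest in each group, and in each batch and genotype the TKO library was the lower, though the groups overlapped. The fall in GrnKO cells (log2 -0.32 ± 0.11, adjusted p = 0.0381) was not kept without the replicate block (0.394), with RLE scaling (0.0524), or without GrnKO Rosa26 replicate 1, 2 or 4 or GrnKO TKO replicate 1, 2 or 3 (0.0524 to 0.169). In WT cells the difference was -0.40 ± 0.11 (adjusted p = 0.0703). It was called there with no filter (0.00185), DESeq2 (0.0275), the Y-linked covariate (0.0423) and on the libraries without Y-linked signal (0.0306). With RLE scaling, at 5 CPM or more, with limma and without the block it was not called.

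Mmp12 did not differ detectably between the genotypes, at 0.01 ± 0.11 in Rosa26 cells (adjusted p = 0.936) and 0.09 ± 0.11 in TKO cells (adjusted p = 0.752). Mmp27 averaged 2.90 ± 0.23 CPM in GrnKO TKO and 4.37 ± 0.42 CPM in GrnKO Rosa26, and 2.35 ± 0.45 CPM in WT TKO and 3.23 ± 1.1 CPM in WT Rosa26. It fell with editing in GrnKO cells (-0.59 ± 0.20, adjusted p = 0.0321), a call lost when any 1 of the 8 GrnKO libraries was left out (0.0558 to 0.0988). Mmp8, the neutrophil collagenase, averaged 12.0 ± 3.6 CPM in GrnKO TKO, 12.0 ± 2.1 CPM in GrnKO Rosa26, 13.7 ± 1.3 CPM in WT TKO and 9.51 ± 1.0 CPM in WT Rosa26. The WT groups of Mmp8 did not overlap, and the edit in WT cells gave 0.54 ± 0.15 (adjusted p = 0.0513). That difference was called with RLE scaling (0.0489), no filter (0.00623), 5 CPM or more (0.0445), DESeq2 (0.0157) and limma (0.0467). With the Y-linked covariate, without the block and on the libraries without Y-linked signal it was not called. Neutrophil markers summed to 7.69 to 14.9 CPM over all libraries, nearly all of it S100a8, while Retnlg was at 0 in 14 libraries and Ly6g in 11.

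**Figure D4:**
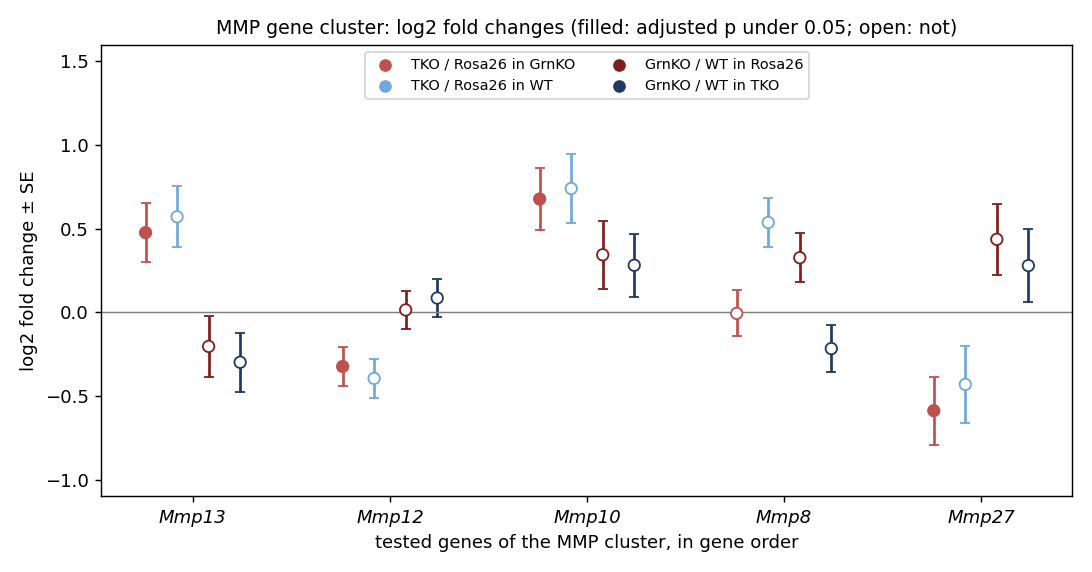
Log2 fold change ± SE (vertical axis) of the 5 tested MMP genes of the chromosome 9 row, in gene order, for 4 comparisons; filled points have an adjusted p under 0.05. The edit moves Mmp13 and Mmp10 above 0 and Mmp12 and Mmp27 below 0, at 0.48, 0.68, -0.32 and -0.59 in GrnKO cells.

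RefSeq starts were listed for 54 of the 85 members, 30 of the 40 tested and 8 of the 13 described by library. The E-box CACGTG was found in 2 of the 30 (Adam10 at -64 and Adam19 at -130, in bases from the start), a share of 6.67% beside 8.09% of the 27025 genes of the table. The M-box core CATGTG was found in 2 (Mmp10 at -67 and Mmp12 at -83), or 6.67% beside 15.9%. The longer CLEAR motif, which contains the E-box, was in none of the 30, beside 0.37% of all genes. The AP-1 site TGAGTCA was in 4 (Mmp10 at -63, Mmp12 at -44, Mmp13 at -35 and Adam19 at -131), or 13.3% beside 5.95%, and in Mmp10 its letters overlap the M-box core. Adam19 has several starts listed, and its E-box and AP-1 site belong to different ones. Their windows begin at chr11:46054252 (E-box) and chr11:46055734 (AP-1 site), and a further Adam19 window held neither. The AP-1 letters were added to the search after the values were seen, and a match is a description of these windows only.

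The 45 members that did not pass the filter had at most 1.86 CPM in any library (Mmp3) and a count in 2 or more libraries each. Among the MMPs these were Mmp1a, Mmp1b, Mmp3, Mmp7, Mmp16, Mmp17, Mmp20, Mmp21, Mmp23, Mmp24 and Mmp28. Among the ADAMs they were Adam1b, Adam2, Adam3, Adam4, Adam5, Adam6a, Adam6b, Adam7, Adam11, Adam12, Adam18, Adam20, Adam21, Adam24, Adam25, Adam26a, Adam26b, Adam28, Adam29, Adam30, Adam32, Adam34, Adam34l and Adam39, many of which are known as testis genes. The rest were Adamts3, Adamts4, Adamts5, Adamts7, Adamts8, Adamts15, Adamts17, Adamts18, Adamts20 and Timp4. Adamts4 and Adamts5, the aggrecanases, reached group means of at most 0.491 and 0.276 CPM, and no change in them was detectable at this depth. Levels of near-identical copies, such as Adam6a and Adam6b or Mmp1a and Mmp1b, are uncertain, since reads that match both can be split between them.

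Genes that activate, inhibit or serve these proteases were read from the same fit. Of 10 convertase and plasminogen genes tested, 1 rose and 3 fell with loss of Grn in Rosa26 cells, and 3 rose and 1 fell with editing in GrnKO cells. That is 40% in each, beside 44.6% and 32.6% of all genes tested. Serpine2 (protease nexin-1) averaged 0.930 ± 0.65 CPM in GrnKO TKO, 4.03 ± 1.1 CPM in GrnKO Rosa26, 0.789 ± 0.45 CPM in WT TKO and 0.719 ± 0.18 CPM in WT Rosa26. It rose by 2.53 ± 0.37 with loss of Grn in Rosa26 cells (adjusted p = 2.42e-05) and fell by 2.20 ± 0.33 on the log2 scale with editing in GrnKO cells (adjusted p = 8.47e-05). The urokinase receptor Plaur fell with loss of Grn in Rosa26 cells (-0.97 ± 0.21, adjusted p = 0.00191). Furin, the convertase that activates Mmp14, Mmp11 and ADAM proteases, rose with editing in GrnKO cells (0.39 ± 0.09, adjusted p = 0.00194) and was the 1 gene of the list called for the edit in WT cells (0.42 ± 0.09, adjusted p = 0.0079).

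Of 7 tested partners that traffic ADAM17 and ADAM10, 3 rose with loss of Grn in Rosa26 cells and 3 fell with editing in GrnKO cells, or 42.9% in each, beside 44.6% and 32.6% of all genes tested. Frmd8, which stabilises the ADAM17 carrier iRhom, changed by 0.59 ± 0.11 (adjusted p = 0.000191) and -0.41 ± 0.10 (adjusted p = 0.00564) in these comparisons. The tetraspanin Tspan14 changed by 0.46 ± 0.08 (adjusted p = 0.000211) and -0.43 ± 0.08 (adjusted p = 0.000756), and Tspan17 by 0.26 ± 0.09 (adjusted p = 0.0238) and -0.44 ± 0.09 (adjusted p = 0.00105). None was called for editing in WT cells, where Rhbdf2 had the smallest p (0.38 ± 0.11, adjusted p = 0.0592). A mixed list of inhibitors, clearance receptors and other surface proteins had 5 tested genes: Reck, Lrp1, Bsg, Cd63 and Cd74. Of these, 60% were called with loss of Grn in Rosa26 cells and 40% with editing in GrnKO cells. The shares of all genes tested were 44.6% and 32.6%. The MMP inducer Bsg (0.35 ± 0.07, adjusted p = 0.000681) and the TIMP1-binding tetraspanin Cd63 (0.26 ± 0.09, adjusted p = 0.0316) rose with loss of Grn in Rosa26 cells, and the endocytic receptor Lrp1 fell (-0.34 ± 0.10, adjusted p = 0.0112). With editing in GrnKO cells Cd63 fell (-0.37 ± 0.09, adjusted p = 0.00527) and Lrp1 rose (0.29 ± 0.10, adjusted p = 0.0396).

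Of 18 tested genes for proteins that ADAMs shed, 6 rose and 6 fell with loss of Grn in Rosa26 cells, 5 rose and 2 fell with editing in GrnKO cells, and 4 rose and 2 fell with editing in WT cells. The shares called were 66.7%, 38.9% and 33.3%, beside 44.6%, 32.6% and 3.35% of all genes tested. The ADAM10 substrate Cxcl16 averaged 104.5 ± 9.98 CPM in GrnKO TKO, 62.3 ± 7.41 CPM in GrnKO Rosa26, 150 ± 12.6 CPM in WT TKO and 116 ± 14.5 CPM in WT Rosa26. It fell with loss of Grn in Rosa26 cells (-0.90 ± 0.08, adjusted p = 1.08e-07) and rose with editing in GrnKO (0.75 ± 0.08, adjusted p = 2.78e-06) and WT cells (0.37 ± 0.08, adjusted p = 0.0124). The phagocytic receptor Mertk, shed by ADAM17, rose with loss of Grn (0.95 ± 0.10, adjusted p = 1.13e-06) and fell with editing in GrnKO cells (-0.41 ± 0.10, adjusted p = 0.00502), with an interaction of -0.78 ± 0.15 (adjusted p = 0.00253). Its relative Axl rose with editing in both genotypes, by 1.04 ± 0.20 in GrnKO (adjusted p = 0.000768) and 0.91 ± 0.21 in WT cells (adjusted p = 0.0184), and App fell with loss of Grn (-0.68 ± 0.10, adjusted p = 3.46e-05).

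Of 13 tested matrix genes, 1 rose and 5 fell with loss of Grn in Rosa26 cells, and 5 rose and 1 fell with editing in GrnKO cells, or 46.2% in each, beside 44.6% and 32.6% of all genes tested. Eln, which encodes elastin, the substrate of MMP12, averaged 22.5 ± 3.03 CPM in GrnKO TKO, 4.52 ± 0.69 CPM in GrnKO Rosa26, 24.2 ± 5.97 CPM in WT TKO and 18.9 ± 5.06 CPM in WT Rosa26. It fell with loss of Grn in Rosa26 cells (-2.03 ± 0.13, adjusted p = 1.36e-09) and rose with editing in GrnKO cells (2.31 ± 0.13, adjusted p = 3.48e-10), with an interaction of 1.94 ± 0.17 (adjusted p = 2.59e-06). The growth factor gene Tgfb1 was the 1 that rose with loss of Grn (1.04 ± 0.17, adjusted p = 0.000168). In WT cells Spp1, which encodes osteopontin, was the 1 matrix gene called for the edit, and it fell (-0.55 ± 0.07, adjusted p = 0.00023).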

How the data were processed

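RNA of 16 libraries, 4 per group, was measured by QuantSeq 3′ FWD tags with molecular identifiers, per the labels' protocols. The deposited table holds estimated counts per gene, and 11% of its non-zero values are not whole. The authors' second table gives CPM, a signal per effective library size. It served for 1 alternative, the limma fit, and for a check against the counts. Both deposited tables carry 2 significant digits, a rounding error of up to 4.76%. The submitters' processing notes name the build GRCm39, the aligner STAR (2.7.9a), Salmon (1.10.1) for quantification, and R 4.5.1 with edgeR 4.6.2. The deposited normalization factors, a ratio per library, were made by the authors and used only to check that CPM follow from counts and library sizes.

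Estimated counts were taken to the nearest whole number and fitted with edgeR 4.0.16 (R 4.3.3; TMM scaling, filterByExpr with a minimum count of 10, robust quasi-likelihood) with terms for group and batch over all 16 libraries. P-values were adjusted by Benjamini-Hochberg over 15385 genes, and the scripts were tested on simulated data. The biological coefficient of variation was 12%. CPM printed here are counts scaled to the TMM-adjusted library sizes of this fit, not the authors' values. Summed counts carry the precision of the tags, and intervals on them would cover counting error only.

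The series design states that each batch holds 1 animal per group, so the replicate number marks the batch and pairs the libraries. Deviations of same-batch libraries from their group means correlated at 0.246 on average in GrnKO cells (lowest pair 0.144) and at 0.263 in WT cells (lowest 0.178). Between genotypes the mean was 0.0566 to 0.109. Animals differ between genotypes. Y-linked signal lay on the same side of 5 CPM in the TKO and Rosa26 libraries of every genotype and batch. In WT cells of batch 2, for example, it was 51.6 CPM with TKO and 58.9 CPM with Rosa26, with Xist at 217 and 212 CPM. Whether such libraries share an animal was not tested, and the fit has no term for it. P-values measure the spread between libraries within batches, which for editing may be cultures of the same animals.

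Alternatives were no replicate block, RLE scaling, DESeq2 1.42.0, limma 3.58.1 on log2(CPM + 0.5), fitting every gene, fitting those with a group mean from 5 CPM up, Y-linked signal as a covariate, libraries without that signal with and without the block, and leaving out each batch or library. The 10 libraries without that signal are those of WT cells in batches 1 and 4 and of GrnKO cells in batches 1, 2 and 3. Only batch 1 holds both genotypes there, so with the block comparisons between genotypes rest on that batch. Fewer libraries and pairs cannot be told apart there from an effect of Y-linked signal. Each tested member is named. Those called and at a group mean of 5 CPM or more are given by library. Of the lists of other genes, up to 3 of smallest p per list and comparison could be named. Members and lists were chosen with earlier results of these data known. Promoter windows come from RefSeq tables of GRCm38.p6, another build than that of the counts, and were used by gene symbol.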

Additional observations from a re-analysis of the deposited data

Results flagged for a closer look

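Of 52 groups of 4 libraries examined for a library far from the other 3 (a gap above Dixon's critical value), 3 had one, and chance gives about 1 in 20. Adam9 was at 307.8 CPM in WT Rosa26 replicate 1, with the others at 110 to 143 CPM. Mmp10 was at 8.575 CPM in GrnKO TKO replicate 2, with the others at 6.62 to 6.91 CPM, and at 4.957 CPM in WT Rosa26 replicate 3, with the others at 2.92 to 3.15 CPM.

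The effect of editing differed between the genotypes for 4 members by edgeR's interaction term with Benjamini-Hochberg adjustment. The log2 effect in GrnKO minus that in WT cells was -2.488 for Adamts1 (adjusted p = 4.39e-05), 0.5725 for Adam8 (adjusted p = 0.00762), -1.286 for Adam19 (adjusted p = 0.0191) and -0.3766 for Mmp19 (adjusted p = 0.0305). That of Adamts1 held under the 29 alternatives, and the others did not hold under all of them.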

How the results depend on the processing

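Of 40 member calls, 10 were kept under every alternative that gave them a value (8 of these had one under all 29) and 21 whichever single library was left out, and none changed direction. Kept calls numbered 25 with no replicate block, 39 with RLE scaling, 34 with no filter, 28 of the 29 that had a value with a mean of 5 CPM or more, 39 with DESeq2, 35 with limma and 38 with the Y-linked covariate. On the 10 libraries without Y-linked signal they numbered 21, and 16 with no block there. Of the batches, only batch 1 has both genotypes among those libraries.

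Members called for editing in GrnKO cells (11) numbered 6 with no replicate block, 7 at 5 CPM or more and 4 without Y-linked libraries and block. For editing in WT cells (1) they numbered 2 with RLE, 3 at 5 CPM or more and with the covariate, 5 with no filter, DESeq2, limma and without Y-linked libraries, and 0 there with no block. For GrnKO TKO against WT TKO (5) they were 2 with no block, and 0 without Y-linked libraries with and without it. For GrnKO TKO against WT Rosa26 (6) they were 2 with no block, 2 without Y-linked libraries and 1 there with no block. For the interaction (4) they were 2, 7 and 1 under the same settings.

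Over all genes, no replicate block gave 216 calls for editing in WT (515 in the fit reported), 345 for GrnKO TKO against WT TKO (767), 732 for GrnKO TKO against WT Rosa26 (1950) and 910 for the interaction (2067). DESeq2 gave 808 for editing in WT and 1208 for GrnKO TKO against WT TKO. Without Y-linked libraries GrnKO TKO against WT TKO gave 112. There, with no block, the calls were 2294 for editing in GrnKO (5011), 15 for editing in WT, 50 for GrnKO TKO against WT TKO, 152 for GrnKO TKO against WT Rosa26 and 388 for the interaction.

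Leaving out libraries or batches gave 8 to 17 members (5074 to 7284 genes) for loss of Grn in Rosa26 cells, 6 to 15 (2637 to 5587) for editing in GrnKO and 1 to 5 (130 to 750) for editing in WT. It gave 1 to 6 (120 to 1145) for GrnKO TKO against WT TKO, 1 to 7 (419 to 2703) for GrnKO TKO against WT Rosa26 and 1 to 8 (283 to 3608) for the interaction. Single libraries that moved a member count over 1.5 times were, for editing in GrnKO, GrnKO TKO replicates 1, 3 and 4 and GrnKO Rosa26 replicates 1 and 4 (6 or 7 members). For editing in WT they were GrnKO TKO replicates 1, 2 and 4, GrnKO Rosa26 replicate 3 and WT TKO and WT Rosa26 replicates 3 and 4 (2 to 5). For GrnKO TKO against WT TKO they were replicate 2 of either (2), and against WT Rosa26 replicate 2 of either (3). For loss of Grn in Rosa26 cells, leaving out WT Rosa26 replicate 4 kept 8 of the 13 calls, with 9 members called in all, 1 of them newly past the filter. For the interaction they were WT Rosa26 replicate 3 (8), GrnKO TKO replicate 2 (7) and GrnKO Rosa26 and WT Rosa26 replicate 4 (2). The cause of these shifts was not tested.

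Besides the splits given above, that for editing in WT was 472 higher and 128 lower with limma and 164 and 52 with no block (336 and 179 in the fit reported). For GrnKO TKO against WT Rosa26 it was 1390 and 699 with limma, 1246 and 747 with no filter and 459 and 273 with no block (989 and 961). For the interaction it was 650 and 2020 with limma and 878 and 1860 with no filter (893 and 1174). For loss of Grn in Rosa26 cells no filter gave 4265 and 2625.

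Counts with 2 digits, 4 animals per group and Y-linked signal that differs between animals limit these results, and members near 1 CPM rest on few tags.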
